A study of Homo sapiens with 27 samples.

Results

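RNA Frac-Seq, in which RNA is sequenced separately from subcellular fractions, was used on U2OS cells, a human osteosarcoma line, and the cytoplasmic libraries of cells that received the TPR shRNA 'TPR D' are compared here with those of cells that received the control shRNA. They are the 6 samples whose labels give the cytoplasmic fraction with one of these shRNAs, 3 replicates of each, out of 27 in the series. The other samples received the shRNA 'TPR A' or come from nuclear or total RNA. All groups share the U2OS background, the growth medium and lentiviral delivery of an shRNA, the control being a scrambled sequence. The cells were lysed with detergent, so that the cytoplasmic fraction also holds RNA bound to the endoplasmic reticulum (ER), and poly(A)+ RNA was sequenced. The authors deposited FPKM, fragments per kilobase of transcript scaled to library size, for 34464 genes. Of these, 14611 had a mean above 1 FPKM over all 27 libraries and lay outside the mitochondrial genome, and they were tested (12381 protein-coding, 1689 lncRNA and 410 without an entry in the annotation used here).

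TPR is a large coiled-coil protein that forms the filaments of the nuclear basket, the structure on the nucleoplasmic side of the nuclear pore. It holds the TREX-2 complex, an mRNA export factor, at the pore, and messenger ribonucleoproteins pass through the basket on their way to the cytoplasm. The cytoplasmic level of an mRNA reflects how much is transcribed, how much is exported and how fast it decays, so the comparison in this fraction asks which transcripts were more or less abundant after TPR depletion, and the total fraction is set beside it where that matters.

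Transcripts of the mitochondrial genome, which stay outside the nucleus, took 26.5% to 35.8% of all FPKM in these 6 libraries. Of 17 marker genes of osteosarcoma and mesenchymal cells, 14 had a mean above 1 FPKM, with VIM at 1275 to 2151 and SPARC at 329 to 464 FPKM. TWIST1 was listed at 0 in all 6, and COL1A2 and NT5E reached at most 0.165 and 0.109 FPKM. The summed level of the 9 epithelial markers was 6.59 to 9.28 FPKM in control and 8.27 to 14 in TPR D libraries, and that of the 10 blood markers 4.38 to 8.86 and 12.4 to 27.5, nearly all of it from CD68, a lysosomal protein. The blood genes CD3E and HBB were listed at 0 in all 6, and PTPRC and LYZ reached at most 0.275 and 0.546 FPKM. HBA1 was listed at 0 in the controls and at 0, 0.275 and 0.963 FPKM in TPR D replicates 1 to 3. From the steps between the lowest values, a level of 1 FPKM on a 1 kb transcript corresponded to 32.5 to 40.5 reads in the control and 34.2 to 48.9 in the TPR D libraries. One read on 1 kb was thus 0.0204 to 0.0308 FPKM.

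TPR (ENSG00000047410) is on chromosome 1 (GRCh37, 186280784 to 186344825, minus strand), and its exons overlap those of PRG4 on the opposite strand. Its mRNA was at 2.87, 2.2 and 3.57 FPKM in control replicates 1 to 3 and at 0.538, 0.187 and 0.515 in TPR D replicates 1 to 3. All 3 TPR D libraries lay below all 3 control libraries, and the mean log2 level was 2.60 lower, or 16.5% of control on the log2(FPKM + 0.1) scale, which understates changes of low genes (log2 change -2.60, standard error 0.51). In limma, fitted on the 9 cytoplasmic libraries with Benjamini-Hochberg adjustment over all 14611 genes, the adjusted p was 0.132, so TPR itself did not pass the threshold of 0.05. A 2-sided exact permutation test of 3 against 3 libraries gave p = 0.1, the smallest that 20 splits allow. When limma was fitted on all 27 libraries the adjusted p was 0.00116. The values of TPR A were 0.456, 0.133 and 0.677 FPKM. The other genes of the basket did not pass the test. NUP153, which anchors the basket to the pore, was at 7.88, 7.3 and 6.7 FPKM in control and 10.7, 7.2 and 7.53 in TPR D libraries (log2 change 0.19, adjusted p = 0.93), and those of NUP50 (log2 change 0.42) and ZC3HC1 (log2 change 0.03) overlapped as well. In such bulk libraries a change in the RNA of each cell and a change in the make-up of the cells cannot be told apart, and a shift common to all genes is removed by the rescaling.

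The test called 7 of 14611 genes, 0.0479%, of which 5 were higher (0.0342%) and 2 lower (0.0137%) in TPR D cells. Before adjustment, p was under 0.05 for 1208 genes (8.27%), 608 higher (4.16%) and 600 lower (4.11%), and log2 changes had a median standard error of 0.292. Without control replicate 2, without TPR D replicate 3, or with replicates 2 and 3 alone, limma called no gene (807, 751 and 606 genes at an unadjusted p under 0.05), and without TPR D replicate 1 the count was 1, ENSG00000267637. Of the 7 genes, 6 are described here, and among these COX10 and MIR100HG met the rule for named genes. CRYGS and the 3 genes known only by an identifier are named after their values were seen, because the count is small.

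Of the genes that fell, COX10 is described here. COX10 (ENSG00000006695; chromosome 17, 13972807 to 14135053, plus strand) makes the haem O precursor of the haem A in cytochrome c oxidase. It was at 15.8, 16.1 and 13.3 FPKM in control and 5.44, 4.74 and 4.77 in TPR D libraries, a level 33.6% of control (log2 change -1.58, standard error 0.20, limma adjusted p = 0.0346). In the TPR A libraries it was at 15.1, 14.8 and 11.8 FPKM, within or near the range of the controls. Its adjusted p passed the threshold in 11 of 22 alternatives. Exons of COX10 overlap its divergent lncRNA COX10-DT on the opposite strand. The libraries were made with a directional kit, and whether the quantification used the strand is not given in the sources used here.

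MIR100HG (ENSG00000255248; chromosome 11, 121899033 to 122427429, minus strand) is the best measured of the genes that rose. It is a long non-coding RNA whose transcript hosts a cluster of microRNAs. It was at 1.66, 1.59 and 1.56 FPKM in control and 6.63, 6.6 and 5.55 in TPR D libraries, 3.72-fold higher (log2 change 1.90, standard error 0.24, limma adjusted p = 0.0346). The 3 control libraries were close to each other, and all TPR D libraries were above them. The TPR A libraries were at 5.23, 4.41 and 7.08 FPKM. Its adjusted p passed the threshold in 10 of 22 alternatives. Exons of MIR100HG overlap those of BLID and of an unnamed lncRNA on the same strand, between which the quantification may have split reads. Within it, on the same strand, lie the hairpin genes MIR125B1 (121970465 to 121970552), MIRLET7A2 (122017229 to 122017301) and MIR100 (122022937 to 122023016), and no exon of MIR100HG overlaps any of the 3. Their main mature products are printed to show what the host transcript carries, in RNA letters as given by RefSeq (table build GRCh38.p14), with the seed, bases 2 to 8, in capitals:
hsa-miR-125b-5p: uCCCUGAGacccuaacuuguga
hsa-let-7a-5p: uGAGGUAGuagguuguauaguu
hsa-miR-100-5p: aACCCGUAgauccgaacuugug
The 3 are each 22 nt long and no seed is shared between them. MicroRNAs are not in a poly(A)+ library made for long RNAs, and their levels were not measured here.

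The other 4 called genes were at or near 0 in every control library. CRYGS (ENSG00000213139; chromosome 3, 186256230 to 186264491, minus strand), a lens crystallin gene, was at 0, 0.0345 and 0.0276 FPKM in control and 2.12, 1.47 and 2.1 in TPR D libraries (limma adjusted p = 0.0385), and its exons overlap those of TBCCD1 on the same strand. ENSG00000273338, a lncRNA with 1 exon of 209 nt (chromosome 1, 78470030 to 78470238, minus strand) inside GIPC2 and DNAJB4 on the opposite strand, was listed at 0 in all 3 controls and at 18.7, 32.7 and 22 FPKM with TPR D (adjusted p = 0.013). This transcript is shorter than the 260 nt that had to be subtracted from transcripts to make the steps between low values regular, so that a few reads give a large FPKM. Its TPR A values ran from 2.52 to 46.8 FPKM. ENSG00000257622 (chromosome 14, 105618531 to 105647531, minus strand), a lncRNA whose exons overlap NUDT14 and JAG2 on the same strand, was listed at 0 in the controls and at 1.95, 1.26 and 2.38 FPKM with TPR D (adjusted p = 0.0149). ENSG00000267637 has no entry in the annotation. It was listed at 0 in the controls and at 1.55, 2.25 and 5.47 FPKM with TPR D (adjusted p = 0.013). No fold is given for these genes, since the log2 change then depends on the constant added to the FPKM, and with 1 FPKM added in place of 0.1 limma called none of the 7 genes (1217 genes at an unadjusted p under 0.05). The 3 genes known only by an identifier, at 0 in all 3 cytoplasmic controls, passed the minimum only through other libraries. Equal values of 0 also leave the control group without spread, which lowers the standard error. Their adjusted p is therefore given as a description.

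**Figure D1:**
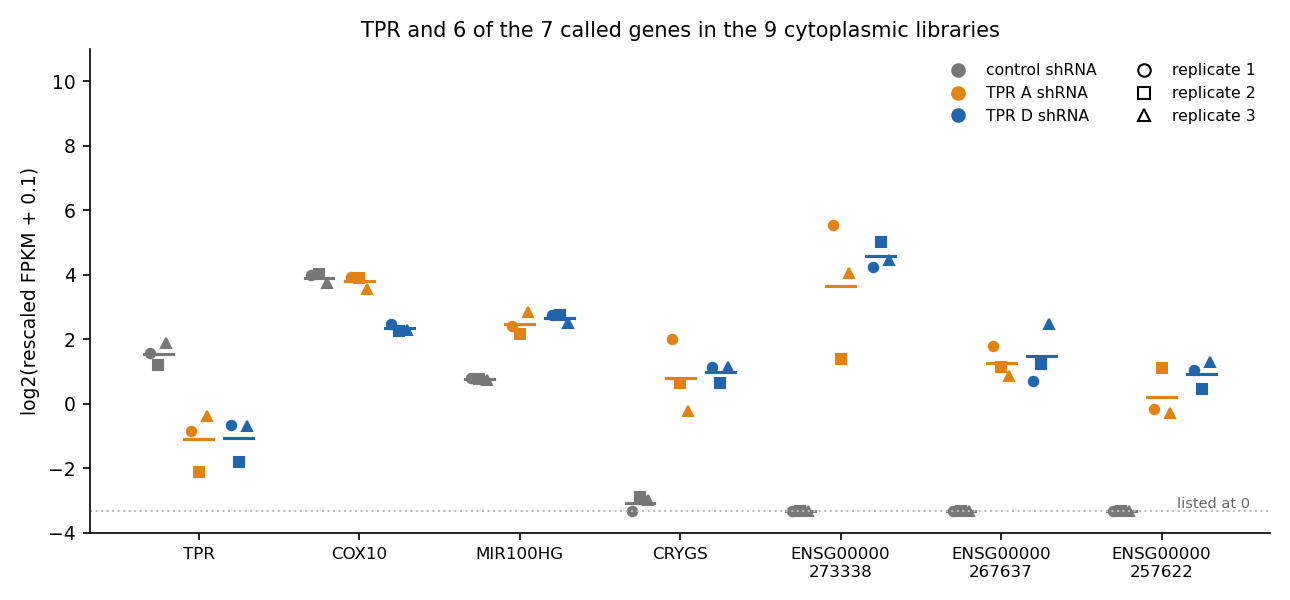
Level of TPR and of 6 of the 7 called genes in each of the 9 cytoplasmic libraries, as log2(rescaled FPKM + 0.1). Points are libraries, with a shape for each replicate, bars are group means, and the dotted line marks genes listed at 0. COX10 is lower with TPR D (blue) than with control (grey), MIR100HG is higher with both TPR shRNAs, and the 4 genes on the right of it lie at or close to 0 in the controls.

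The count depends on the libraries and terms in the model. With all 27 libraries in the model, in 9 groups, 84 genes were called (0.575%), 53 lower (0.363%) and 31 higher (0.212%). The rescaling factors were then taken over all 27 libraries. This model has no term for the culture, so the cytoplasmic, nuclear and total libraries of a culture count as independent. Its p can therefore be too small. Without the nuclear and the total library labelled control replicate 2, which stand apart from their fractions (21.8% and 0.738% of mitochondrial transcripts), there were 155 (1.06%), among them all 84, a choice made after seeing the data. A replicate block in the model of 9 libraries gave 24 (0.164%), among them the 7 above. Of the 84, the 3 TPR D libraries lay beyond all 3 control libraries for 83, against 13.7% of all genes tested, a measure from the same contrast that chose them. Of the 7 genes above, 5 were among the 84, and ENSG00000267637 and ENSG00000257622 were not. The genes described next were taken by the same rule as before, the 15 with the largest change in each direction, but applied to this wider model, and so after their values were seen. Of the genes described, only COX10 and MIR100HG also passed the threshold in the 9-library model. SHMT2, for example, had a limma adjusted p of 0.0856 there.

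Among the lower genes, besides COX10, were SHMT2, DNM1L, TOMM22 and ACOT13. SHMT2, the mitochondrial serine hydroxymethyltransferase of one-carbon metabolism, was at 186, 152 and 146 FPKM in control and 37.5, 73.1 and 33.8 in TPR D libraries (log2 change -1.82, limma adjusted p = 0.0057 over 27 libraries). DNM1L, the dynamin-related GTPase that divides mitochondria, was at 89.7, 94 and 81.2 FPKM in control and 41.4, 21 and 27.7 in TPR D libraries (log2 change -1.61, adjusted p = 0.00156). TOMM22, a receptor for protein import at the outer membrane, went from 143, 160 and 106 FPKM to 46.9, 74.5 and 47.2 (log2 change -1.29, adjusted p = 0.0153). ACOT13, an acyl-CoA thioesterase, went from 5.35, 6.12 and 5.61 FPKM to 1.75, 2.25 and 2.25 (log2 change -1.42, adjusted p = 0.00316). In each of the 4 the TPR D libraries were all below the controls. Their changes with TPR A were small and of either sign, -0.29, -0.19, -0.16 and 0.03 on the log2 scale. The lists of mitochondrial proteins that were examined as lists, the mitochondrial ribosome and the respiratory chain, had no called member in this model.

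SLC17A7, a vesicular glutamate transporter, was at 7.17, 4.74 and 6.97 FPKM in control, at 1.53, 2.04 and 1.53 with TPR D and at 15.8, 16.8 and 8.81 with TPR A, so that the shRNAs lay on opposite sides of control (log2 change -1.82 with TPR D, adjusted p = 0.00116 over 27 libraries). F2RL2, a protease-activated receptor, had the largest fall by this rule, from 6.98, 7.61 and 14.6 FPKM to 2.37, 1.47 and 3.05 (log2 change -2.01). ST3GAL6, a sialyltransferase, went from 5.59, 6.26 and 3.9 to 2.27, 0.7 and 1.49 (log2 change -1.86). LASP1, an actin-binding protein, went from 194, 170 and 169 to 61.7, 78.3 and 47.3 (log2 change -1.54). IMPA2, an inositol monophosphatase, went from 16.6, 14.7 and 15.2 to 4.05, 5.41 and 6.53 (log2 change -1.55). MUC1, a membrane mucin (log2 change -1.50), FZD6, a Wnt receptor (-1.24), and the genes MROH6 (-1.67) and INAFM2 (-1.43) were also among them. With TPR A the log2 changes were -0.99 for F2RL2, 0.02 for ST3GAL6, -0.47 for LASP1, -0.74 for IMPA2, -1.59 for MUC1, -0.87 for FZD6, -1.28 for MROH6 and -0.82 for INAFM2.

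XPO7, WTAP and CNOT9, named after their values were seen, lay outside the largest 15. XPO7, a nuclear transport receptor, was at 49.7, 37.8 and 38 FPKM in control and 19.7, 20.6 and 22.9 in TPR D libraries (log2 change -0.98, adjusted p = 0.0409 over 27 libraries). WTAP, a regulatory subunit of the complex that writes N6-methyladenosine (m6A) into mRNA, was at 56, 61.5 and 43.3 FPKM and at 30.2, 22.4 and 24.2 (log2 change -1.06, adjusted p = 0.0463). CNOT9, a subunit of the CCR4-NOT deadenylase, was at 69.3, 71.3 and 52.9 FPKM and at 34.4, 31.6 and 25.6 (log2 change -1.07, adjusted p = 0.00768). With TPR A the 3 genes changed by 0.02, -0.08 and -0.12 on the log2 scale.

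Among the higher genes were RBM15, CCND2, DUSP2 and CPEB2. RBM15, an RNA-binding protein of the m6A writer complex, was at 3.19, 2.98 and 2.31 FPKM in control and 7.97, 7.83 and 5.28 in TPR D libraries (log2 change 1.27, limma adjusted p = 0.00525 over 27 libraries, 0.132 over 9). CCND2, cyclin D2, went from 45.1, 39.1 and 55.9 FPKM to 93.4, 159 and 105 (log2 change 1.33, adjusted p = 0.0193 over 27 libraries). DUSP2, a MAP kinase phosphatase, went from 38.4, 47.4 and 38.5 to 105, 103 and 90.2 (log2 change 1.26, adjusted p = 0.00872). CPEB2, which binds a control element in mRNAs, went from 1.1, 1.01 and 1.27 to 3.73, 3.16 and 3.56 (log2 change 1.55). In all 4 the TPR D libraries lay above the controls. With TPR A the log2 changes were 1.51 for RBM15, 0.99 for CCND2, 0.26 for DUSP2 and 1.36 for CPEB2.

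SLC25A48, of the mitochondrial carrier family, had the largest rise by the rule, from 0.701, 0.713 and 0.489 FPKM to 2.98, 3.56 and 3.95 (log2 change 2.30, adjusted p = 0.00303 over 27 libraries). The prostaglandin transporter SLCO2A1 went from 2.51, 1.8 and 2.84 to 5.86, 11.6 and 7.99 (log2 change 1.76), and the amino acid transporter SLC7A8 from 1.13, 0.795 and 1.22 to 3.04, 2.96 and 3.39 (log2 change 1.51). AOPEP, an aminopeptidase, went from 7.42, 7.96 and 5.52 to 18.4, 19.1 and 17.4 (log2 change 1.40, adjusted p = 0.00116). The transcription cofactor MN1 (log2 change 2.03), the receptor GPRC5B (1.36), gamma-synuclein, SNCG (1.35), LDLRAD4 (1.25) and the divergent lncRNA PPP1R3B-DT (1.13) were also among them, as was MIR100HG. The log2 changes with TPR A were 0.53 for SLC25A48, 1.03 for SLCO2A1, 1.43 for SLC7A8, 0.87 for AOPEP and 1.74 for MN1. For GPRC5B, SNCG, LDLRAD4 and PPP1R3B-DT they were 0.78, 0.89, 0.855 and 0.48.

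**Figure D2:**
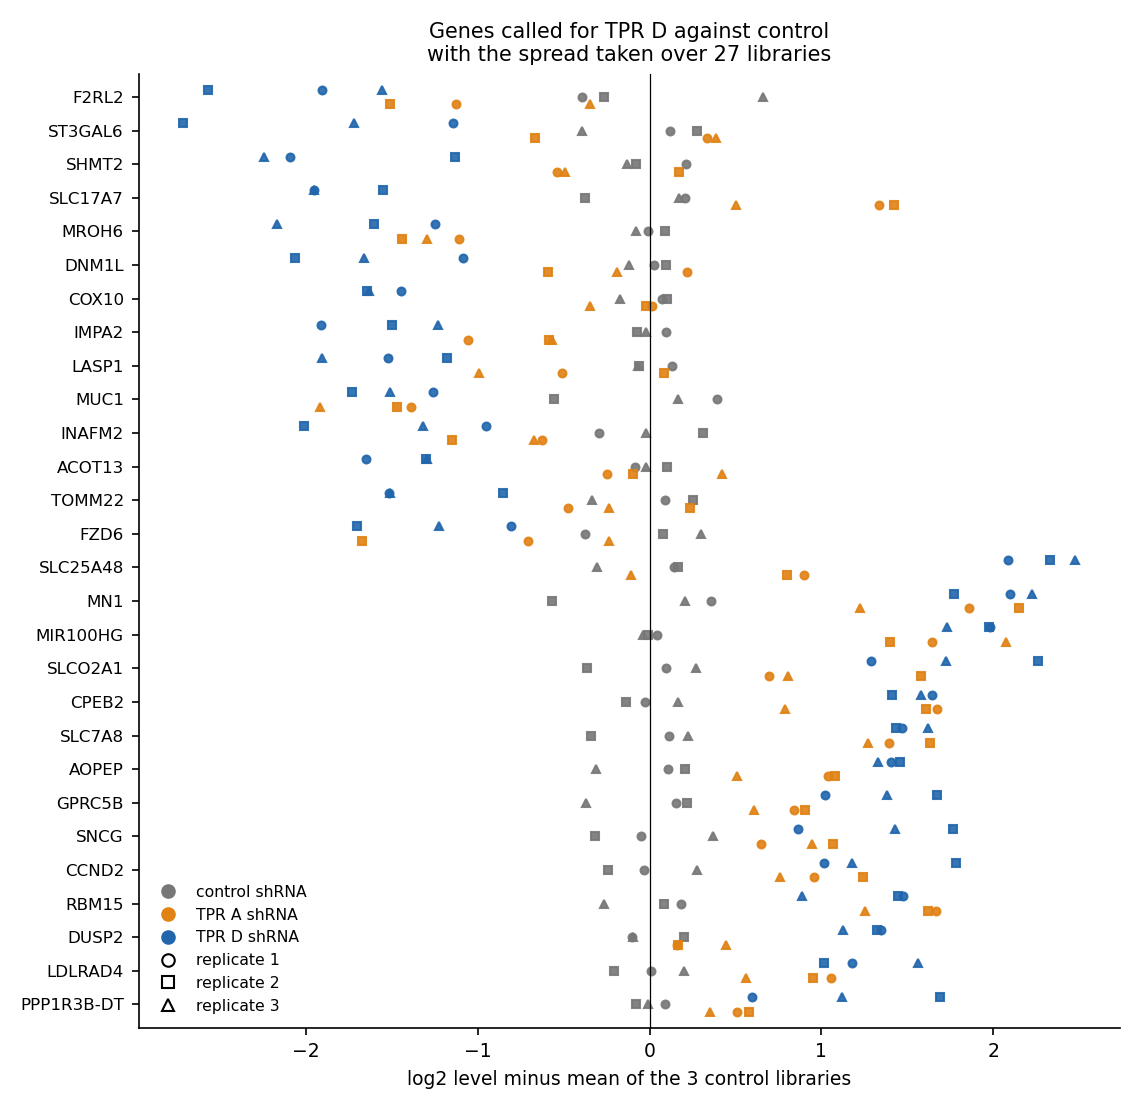
Log2 level of 14 of the 15 genes with the largest fall and 14 of the 15 with the largest rise in the model over 27 libraries, in each cytoplasmic library minus the mean of the 3 control libraries. Blue points (TPR D) lie beyond the grey points (control) for each gene, which the rule required, while orange points (TPR A) lie near 0 for COX10, DNM1L, ACOT13 and DUSP2, near the blue points for MIR100HG and RBM15, and on the other side of 0 for SLC17A7.

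TPR A and TPR D were set against each other directly, in a contrast that holds no control library, to ask whether the shRNAs differ. Limma called 1 gene, SLC17A7, 0.00684% of those tested, and it was lower with TPR D (log2 difference -2.91, standard error 0.30, adjusted p = 0.0282), and 1039 genes had an unadjusted p under 0.05 (7.11%). TPR A and TPR D libraries of the same replicate number deviated from their group means together (correlations of 0.397, 0.595 and 0.438 across genes). With the replicate number as a block 7 genes were called (0.0479%), 6 lower and 1 higher with TPR D. They were SLC17A7, COX10 (log2 difference -1.46, adjusted p = 0.0433), HMOX1 (-1.96, adjusted p = 0.0356), PDLIM1 (-2.44), SPINK6 (-3.79), ENSG00000227136 (-3.50) and, higher, IFRD2 (1.48), named because they are few. HMOX1, haem oxygenase 1, was at 55.8, 56.6 and 58.6 FPKM in control, 83.7, 121 and 95.9 with TPR D, and 246, 518 and 452 with TPR A. Its TPR D change did not pass the test (log2 change 0.80, limma adjusted p = 0.43). Without any 1 of the 3 control libraries, of the 3 TPR D libraries or TPR A replicate 2, limma called no gene (652 to 1244 genes at an unadjusted p under 0.05), without TPR A replicate 1 the 1 call was HMOX1, and without TPR A replicate 3 there were 4. Of the 53 genes called lower against control over 27 libraries, 20 were also called for TPR D against TPR A in that model, which called 93 genes (0.637%), and of the 31 higher genes 4 were. Both sets were chosen on the same TPR D libraries.

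None of the gene lists had a member called in the 9-library model, so they are described by counts and medians. The median log2 change over all genes tested was 0.00, 49.8% of genes were below 0, and 6.66% had all 3 TPR D libraries above, and 7.02% all 3 below, the 3 controls. No test was made on the lists. The largest shift was that of small nucleolar RNA (snoRNA) host genes, non-coding genes whose introns hold snoRNAs and whose spliced RNA is mostly degraded in the cytoplasm by nonsense-mediated decay. Of 20 tested, 19 were below 0, with a median log2 change of -0.43, and 5 had an unadjusted p under 0.05. By library, the median against the mean of the controls was -0.41, -0.18 and -0.44 in TPR D replicates 1 to 3. The control libraries, each against the mean of the other 2, were at -0.25, 0.26 and 0.07, so the groups overlapped. All 3 TPR D libraries were below the controls for 3 of the 20 genes (15%) and above for none. SNHG19 was at 211, 243 and 248 FPKM in control and 84.9, 74.6 and 45.2 in TPR D libraries (log2 change -1.82, limma adjusted p = 0.13), with no overlap. SNHG12 was at 36.1, 18.5 and 6.69 in control and 6.18, 5.88 and 4.13 in TPR D libraries (log2 change -1.62, adjusted p = 0.38), SNHG9 at 182, 172 and 125 and at 81.3, 140 and 70.2, and DANCR at 302, 312 and 344 and at 118, 288 and 151. GAS5, the 1 member above 0, was at 667 to 1156 FPKM in control and 710 to 1154 in TPR D libraries. The genes of nonsense-mediated decay factors, 17 tested, had a median of 0.00, with 3 genes all above and none all below the controls.

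In total RNA the snoRNA host genes did not move the same way. Without the library labelled control replicate 2, their median log2 change was 0.13 in total and 0.38 in nuclear RNA. The cytoplasmic minus the total change had a median of -0.49 and was below 0 for 95% of the 20 genes. It was below 0 for 65.5% of the 1689 lncRNAs tested, with a median of -0.18, and for 50.3% of all genes tested. With the culture labelled control replicate 2 the median of the snoRNA host genes was -0.58. SNHG19 itself changed by 0.04 in total RNA. These values are given as a description, since limma called no gene for the difference between the cytoplasmic and the total change (lowest adjusted p = 1, 177 genes at an unadjusted p under 0.05, 1.21% of those tested). That fit did not pair the cytoplasmic and total libraries of a culture. With the culture as a block limma also called no gene (296 genes at an unadjusted p under 0.05). The 1.21% is less than this p gives without any change, so the absence of calls says little. Without the culture labelled control replicate 2, and without a block, limma called 1 gene, ENSG00000269363, with 90 at an unadjusted p under 0.05 (0.616%). That gene, without annotation, was listed at 0 in control replicate 2, which that fit leaves out, at 6.34 and 15.8 FPKM in the other 2 cytoplasmic controls, and at 5.26 to 17.9 in the TPR D cytoplasmic libraries. In total RNA it was at 7.51, 9.75 and 11.2 FPKM in control and listed at 0 in all 3 TPR D libraries.

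**Figure D3:**
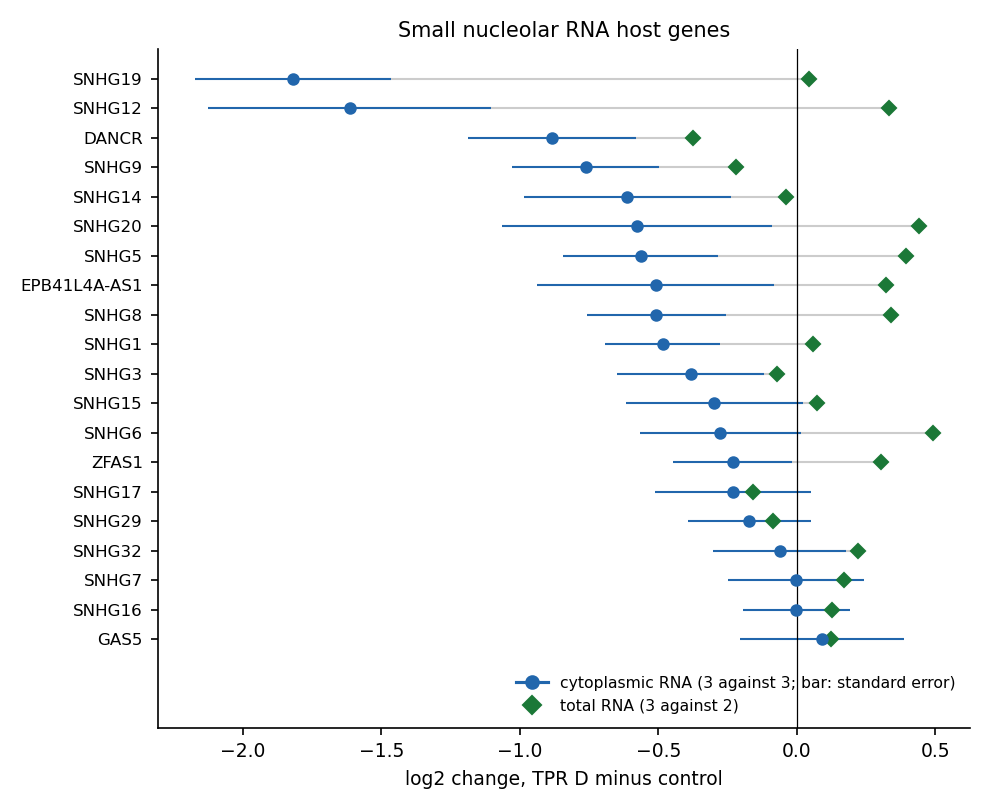
Log2 change of each of the 20 tested snoRNA host genes in TPR D against control cells. Blue points are cytoplasmic RNA with the standard error from limma, and green diamonds are total RNA, without the library labelled control replicate 2. Nearly all blue points lie left of 0 and left of the green diamond of the same gene, with SNHG19 and SNHG12 farthest from it.

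Genes for ribosomes and energy metabolism had lower medians with a wide spread between libraries. Of 87 genes of cytosolic ribosomal proteins 85 were below 0, with a median log2 change of -0.22, but by library the median was -0.78, 0.30 and -0.18 in TPR D replicates 1 to 3, so that replicate 2 lay above the controls. The members with the lowest p were RPL22L1 (log2 change -0.78) and RPL10L (log2 change -0.80), with adjusted p of 0.48 and 0.51 in limma. The nuclear-encoded respiratory chain had a median of -0.19 (68 of 80 below 0) and library medians of -0.53, 0.22 and -0.27. NDUFB2, of complex I, was at 474, 690 and 547 FPKM in control and 265, 353 and 250 in TPR D libraries (log2 change -0.98, adjusted p = 0.19), and SDHD, of complex II, at 109, 148 and 106 and at 76.1, 60.7 and 85 (log2 change -0.70, adjusted p = 0.37). Mitochondrial ribosomal proteins had a median of -0.11 (58 of 78 below 0; -0.42, 0.27 and -0.31 by library), and the proteasome one of -0.14 (25 of 32 below 0; -0.35, 0.16 and -0.27). In all 4 lists TPR D replicate 2 was on the other side of 0, and without TPR D replicate 1 the median of the cytosolic ribosomal proteins was 0.04 and that of the mitochondrial ones 0.02. Replicates 2 and 3 alone gave medians of -0.00, -0.02, 0.03 and -0.01 for the cytosolic ribosome, the respiratory chain, the mitochondrial ribosome and the proteasome.

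Genes of G2 phase and mitosis had a median of -0.27, with 37 of 43 below 0 and library medians of -0.16, -0.23 and -0.42. BUB1B, a spindle checkpoint kinase, was at 14.6, 13.4 and 12.7 FPKM in control and 10.2, 8.12 and 9.05 in TPR D libraries (log2 change -0.57, limma adjusted p = 0.49), and CCNB2, cyclin B2, at 186, 175 and 146 and at 120, 143 and 107 (log2 change -0.46, adjusted p = 0.56). Both had no overlap between groups. In the list, all 3 TPR D libraries were below the controls for 3 of 43 genes (6.98%), close to the 7.02% of all genes. They were above the controls for 1 gene (2.33%), against 6.66% of all genes. For the list, the control libraries lay at 0.14, 0.18 and -0.31, so that control replicate 3 was within the range of TPR D. The median of the 46 genes of DNA replication and S phase was -0.06, and that of the 25 genes of the unfolded protein response and ER chaperones -0.15 (21 below 0), with library medians of -0.18, -0.24 and -0.12. For these 25 genes the control libraries lay at -0.247, 0.165 and 0.104, so that control replicate 1 was below all 3 TPR D libraries. In the latter list ERN1, a sensor of unfolded proteins (log2 change -0.65), and CRELD2 (-0.34) had the lowest p, with adjusted p of 0.62 and 0.82.

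The next lists had medians from -0.15 to 0.13, some with library medians far apart. The list of ATF4 targets had a median of -0.15, NRF2 targets -0.06, heat shock genes 0.04, interferon-stimulated genes -0.07 and secreted inflammatory factors -0.05. Within them SHMT2, an ATF4 target, was called over 27 libraries. HLA-B was at 378, 379 and 430 FPKM in control and 246, 253 and 233 in TPR D libraries (log2 change -0.69, adjusted p = 0.32), without overlap. Of 35 interferon-stimulated genes, 6 (17.1%) had all 3 TPR D libraries below the controls, against 7.02% of all genes, and none had all 3 above. The library medians of this list overlapped, at -0.175, -0.106 and 0.125 in TPR D and 0.185, -0.419 and 0.088 in control replicates 1 to 3. Replicates 2 and 3 alone gave a median of 0.08. Glycolysis genes had a median of 0.00, made of library medians of -0.38, 0.65 and -0.17, cholesterol synthesis genes 0.13 (-0.20, 0.67 and 0.05) and actin and tubulin genes 0.02 (-0.27, 0.55 and -0.20), so that TPR D replicate 2 was the highest of the 3 in each. With TPR A, replicate 2 was also the highest of the 3 in these lists, at 0.45, 0.06 and 0.33. Of 24 cholesterol synthesis genes, 20 were above 0. All 3 TPR D libraries were above the controls for 7 of the 24 (29.2%), against 6.66% of all genes, and below for none. GAPDH was at 11310, 8284 and 11950 FPKM in control and 6390, 16570 and 9359 in TPR D libraries (log2 change -0.06).

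Genes of nuclear pores and export showed few differences. Nuclear pore genes outside the basket had a median of -0.04 over 28 genes, NUP160 (log2 change -0.76, adjusted p = 0.36) and NUP210 (-0.89, adjusted p = 0.38) being the ones with the lowest p. The 32 genes of NXF1, TREX and TREX-2 had a median of 0.03, with RBM15 the only member called over 27 libraries, and CHTOP, a TREX subunit, next by p (log2 change 0.50, adjusted p = 0.67). The 29 nuclear transport receptors had a median of 0.02 over the genes' changes. Their library medians were -0.11, -0.18 and -0.02 in TPR D and 0.03, -0.01 and 0.01 in control replicates 1 to 3, without overlap. XPO7 was called over 27 libraries, and TNPO2 was next by p (log2 change -0.75, adjusted p = 0.24). SR splicing factors, CLK kinases and hnRNPs had medians of 0.04, 0.08 and -0.02, and collagen and matrix genes one of 0.07, with SERPINH1, the collagen chaperone, at 107, 98.3 and 78.1 FPKM in control and 135, 180 and 138 in TPR D libraries (log2 change 0.68, adjusted p = 0.38). The lamina and nuclear envelope list had a median of -0.06, as had that of autophagy and lysosome.

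Zinc finger genes of chromosome 19, clustered genes of which most code for KRAB repressors, had the highest median of the lists with at least 10 members, 0.22 over 189 genes, with 142 above 0. All 3 TPR D libraries were above all controls for 22 of them, 11.6% against 6.66% of all genes, and below for 5, 2.65% against 7.02%. By library the median was 0.39, -0.05 and 0.32. ZNF460 was at 0.664, 0.54 and 0.807 FPKM in control and 1.55, 1.59 and 1.79 in TPR D libraries (log2 change 1.19, adjusted p = 0.23), and ZNF563 at 0.46, 0.33 and 0.383 and at 1.37, 0.695 and 1.14 (log2 change 1.21, adjusted p = 0.33). In total RNA without control replicate 2 the list had a median of 0.31, so that the cytoplasmic minus the total change was -0.10. Reads may be shared between these related genes.

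Replication-dependent histone mRNAs, most of which have a single exon and end in a stem-loop in place of a poly(A) tail, had a median of 0.17 over 23 genes, 16 of them above 0. By library it was -0.01, 0.69 and 0.10, and the control libraries ran from -0.55 to 0.79. H2BC5 was at 13.2, 11.5 and 14.6 FPKM in control and 16.1, 21.1 and 25 in TPR D libraries (log2 change 0.64, adjusted p = 0.39), and H4C8 at 10.5, 6.55 and 5.54 and at 3.11, 5.11 and 5.5 (log2 change -0.70, adjusted p = 0.57). H1-1 was at 2.92, 0.629 and 0 FPKM in control and 0.894, 1.64 and 0.548 in TPR D libraries. Beside them, the median in total RNA without control replicate 2 was 0.71 and in nuclear RNA 1.16. Without the culture labelled control replicate 2, the cytoplasmic change was lower than the total change for 100% of the 23 genes. The same held for 88% of the 184 single-exon mRNAs outside this list and for 50.3% of all genes tested. Poly(A)+ RNA was sequenced, so these values cover only the captured part of mRNAs that end in a stem-loop. How that part relates to the whole was not tested. The histone variants outside S phase, with poly(A) tails, had a median of -0.24 over 11 genes.

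**Figure D4:**
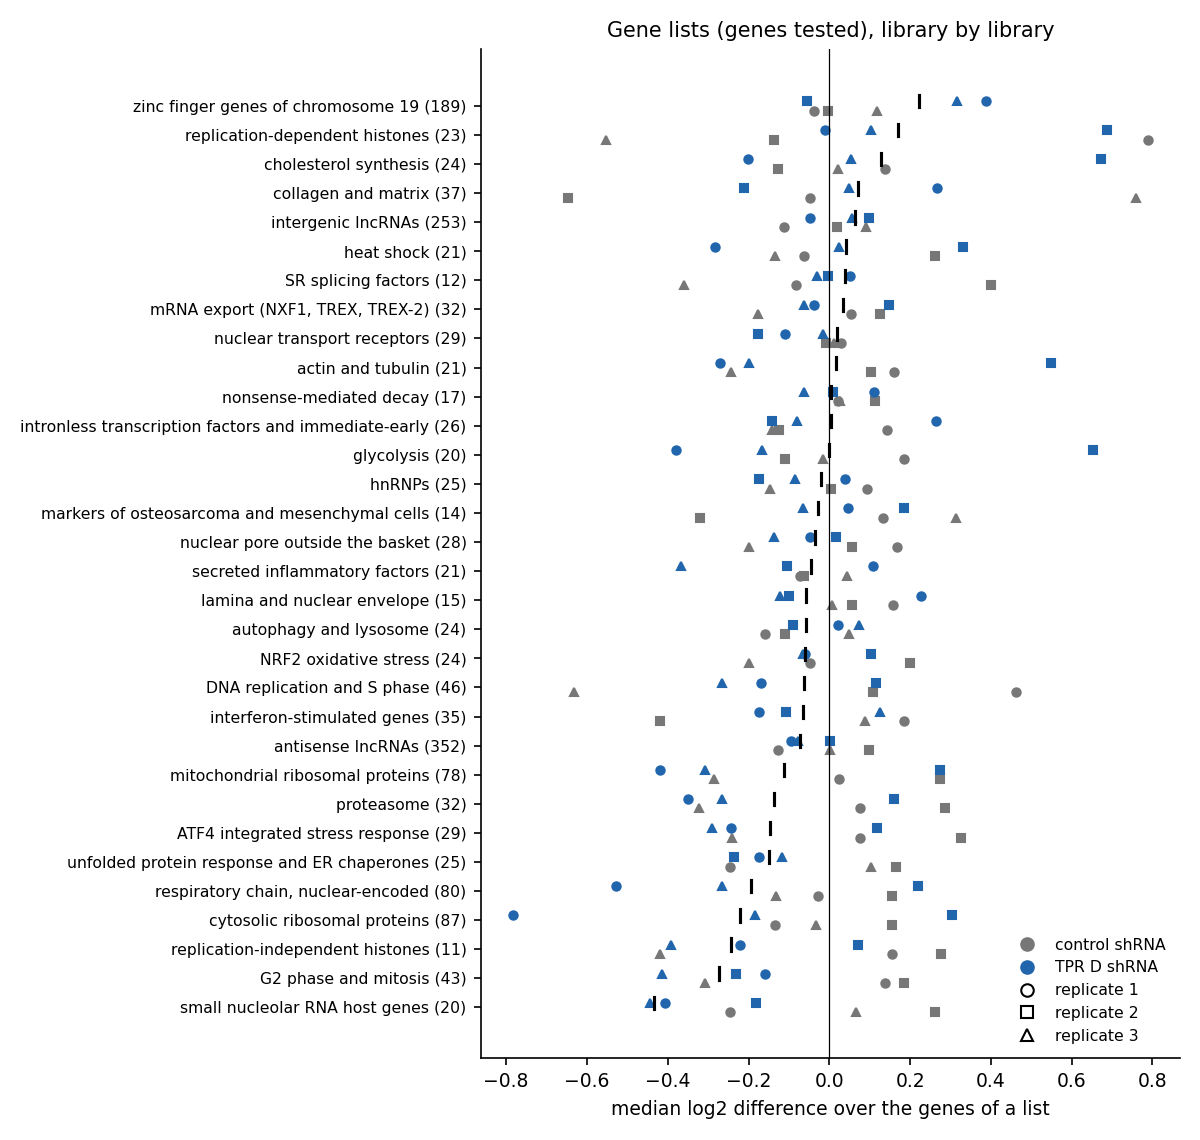
Median log2 difference over the tested genes of the lists shown, each with at least 10 of them, library by library. Blue points are TPR D libraries minus the mean of the controls, grey points are control libraries minus the mean of the other 2, shapes give the replicate, and black ticks are the medians of the log2 change of the genes. SnoRNA host genes have the lowest and zinc finger genes the highest tick, and TPR D replicate 2 (blue squares) lies apart from replicates 1 and 3 for ribosomal proteins, glycolysis, actin and tubulin, and cholesterol synthesis.

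Single-exon transcripts were lower in each TPR D library. Of 201 single-exon mRNAs (a median of 1 exon over the transcripts of a gene) 68.7% were below 0, with a median log2 change of -0.16, against 49.2% and 0.01 for the 12132 multi-exon mRNAs. The library medians were -0.16, -0.15 and -0.16, and those of the control libraries -0.04, -0.02 and 0.03, without overlap. All 3 TPR D libraries were below all controls for 38 of them (18.9%) and above for 14 (6.97%), against 7.02% and 6.66% of all genes tested. Without the 17 histone genes among them the median was -0.17. No single-exon mRNA was called in the 9-library model, and over 27 libraries 3 were, all lower. The median was -0.15 with replicates 2 and 3 alone and between -0.18 and -0.15 when single control or TPR D libraries were left out. Single-exon lncRNAs, 238 tested, had a median of -0.20 and library medians of -0.14, -0.28 and -0.32, with 44 all below (18.5%) and 10 all above the controls (4.20%), but the control libraries ran from -0.17 to 0.22 and overlapped with them. In total RNA without control replicate 2 the medians were 0.17 for single-exon mRNAs and 0.30 for single-exon lncRNAs. The medians of the gene-wise cytoplasmic minus total change, without the culture labelled control replicate 2, were -0.36 and -0.42, and the difference was below 0 for 89.1% and 80.7% of the genes. For multi-exon mRNAs this difference had a median of 0.02 and was below 0 for 47.1%. For multi-exon lncRNAs it had a median of -0.14 and was below 0 for 63%, so part of the shift was common to lncRNAs. Multi-exon lncRNAs had a median log2 change of 0.00 in the cytoplasm.

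NORAD, a single-exon lncRNA of the cytoplasm that binds Pumilio proteins, was at 19.1, 22.2 and 24.4 FPKM in control and 19.2, 7.62 and 21.1 in TPR D libraries (log2 change -0.58, standard error 0.42, limma adjusted p = 0.83), so that replicate 2 carried the difference. JUND, a member of the AP-1 family, was at 186, 133 and 140 FPKM in control and 92.7, 113 and 73.9 in TPR D libraries (log2 change -0.72, adjusted p = 0.42), while the median of the list of 26 intronless transcription factors and immediate-early genes was 0.00. SLC5A3, an inositol transporter, was at 0, 0 and 1.76 FPKM in control and 1.08, 0.695 and 1.04 in TPR D libraries. The nuclear lncRNAs MALAT1 and NEAT1 were at 8.97, 8.84 and 9.09 and at 6.18, 6.53 and 17.5 FPKM in control, and at 11.1, 3.22 and 7.13 and at 12.5, 7.77 and 8.79 in TPR D libraries, and neither passed the test. MIR22HG, a lncRNA that hosts a microRNA, was at 12.8, 2.01 and 15.5 FPKM in control and 0.735, 0.695 and 2.27 with TPR D (log2 change -2.70, adjusted p = 0.32, and 0.0245 over 27 libraries), with an overlap between groups, and its total level changed by -0.01 without control replicate 2. Antisense lncRNAs (352 tested) had a median of -0.07 and intergenic lncRNAs (253 tested) one of 0.06.

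The length of the pre-mRNA went with the change, but not in every library. Spearman's correlation between pre-mRNA length and log2 change was 0.193 across 12333 mRNAs, which share their libraries and are not independent replicates. The median log2 change rose from -0.12 for 1592 mRNAs with a pre-mRNA under 5 kb to 0.13 for 1332 mRNAs of 100 to 300 kb, and was 0.08 for the 209 mRNAs over 300 kb. In TPR D replicates 1 and 3 the shortest bin was at -0.31 and -0.20 and that of 100 to 300 kb at 0.30 and 0.22. In TPR D replicate 2 the order was turned, at 0.20 and -0.17. The coefficient was 0.371, -0.214 and 0.282 in TPR D replicates 1 to 3 and -0.0966, -0.11 and 0.169 in the control libraries, each against the mean of the other 2. With TPR A, it was 0.358, -0.0713 and 0.293, so that replicate 2 was again the lowest. For the number of exons it was 0.0894 (0.132, -0.0508 and 0.107 by TPR D library), and for mRNA length 0.157 (0.295, -0.166 and 0.215). Replicates 2 and 3 alone gave a median of 0.01 in the shortest bin and 0.03 in that of 100 to 300 kb. Against total RNA, without the culture labelled control replicate 2, the cytoplasmic change was 0.19 lower in the shortest bin (median -0.19) and 0.15 higher in that of 100 to 300 kb (median 0.15).

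**Figure D5:**
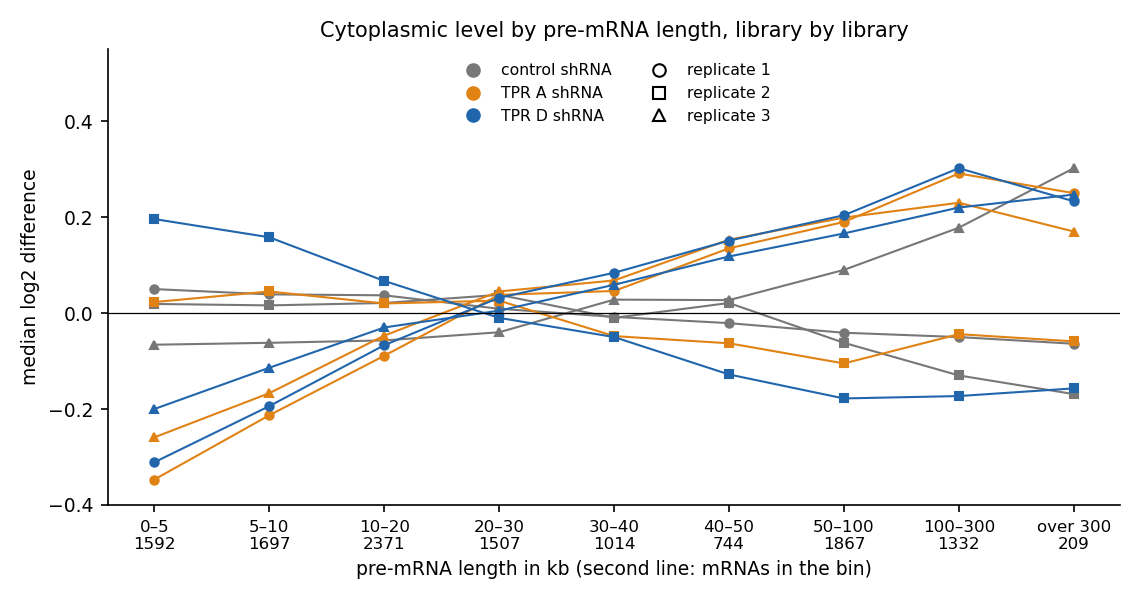
Median log2 difference by pre-mRNA length, with the number of mRNAs in each bin under the axis. Each line is 1 library, TPR D (blue) and TPR A (orange) minus the mean of the controls, and control (grey) minus the mean of the other 2 controls. Replicates 1 and 3 of both TPR shRNAs rise with length, TPR D replicate 2 falls from 0.20 to -0.16, and control replicate 3 rises as well.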

How the data were processed

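The FPKM were deposited by the authors, who quantified reads with Salmon against protein-coding and long non-coding transcripts of an earlier Gencode release (hg19) and summed transcripts to genes with tximport (versions not given in the sources used here). Only FPKM columns were read. Read counts were not analysed here, so no count model was run.

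The 9 cytoplasmic libraries were divided by median-of-ratios factors (0.976 to 1.03) and taken as log2(FPKM + 0.1). Genes with a mean above 1 FPKM over 27 libraries were kept, without the 13 genes of the mitochondrial genome. The contrast TPR D minus control was fitted in R 4.3.3 by limma 3.58.1, with a mean-variance trend in eBayes, on control, TPR A and TPR D, which share 1 estimate of the spread, with a threshold of 0.05 on the Benjamini-Hochberg adjusted p. Levels printed are FPKM after division by the factors. Replicates are numbered in the labels and the methods call them biological replicates. GENCODE 44 on GRCh37 gave symbols and positions for 32776 gene IDs and none for 1688. Structure is the median over a gene's transcripts. Depth comes from the regular steps between low FPKM of 1-transcript genes. After subtraction of 260 nt per transcript, 85.7% of 10516 low values fell within 0.1 of a whole number. Summaries used Python 3.11.15 with numpy 2.4.6 and pandas 2.3.3, and figures matplotlib 3.10.9. The procedure was tested on simulated data.

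Named genes were TPR, up to 15 called genes in each direction that have a symbol, groups without overlap and at least 3 FPKM in the higher group, at most 2 members of each list with the lowest p (4 if called), and a few genes fixed by name. The comparison, lists and rules were chosen with earlier results of these data known. Alternatives were the values as deposited, quantile normalization, pseudocounts of 1 and 0.01, other minima, other sets of libraries, a replicate block, no trend, and each library left out. The set of 25 libraries was chosen after seeing the data.

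Control and TPR D libraries of the same replicate number had correlations of their deviations of 0.0259, 0.119 and 0.275. All were positive, but that of replicate 1 was under 0.1, so the numbers were not taken to pair them. Each TPR A and TPR D pair was over 0.1. Replicate 1 has labels of a different style from the other replicates. A few genes and 1 gene list are not reported here.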

Additional observations from a re-analysis of the deposited data

Results flagged for a closer look

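SLC17A7 was flagged because its effect differed between the shRNAs by a test of the difference itself. The log2 level with TPR D minus that with TPR A was -2.91 (limma adjusted p = 0.0282), at 1.53 to 2.04 FPKM against 8.81 to 16.8 FPKM, with the controls at 4.74 to 7.17. All 3 libraries of each shRNA lay on their own side of all 3 controls.

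ENSG00000269363, a gene without annotation, was flagged because its cytoplasmic and total changes differed, with a log2 difference of 6.64 (limma adjusted p = 0.0295) once the cultures labelled control replicate 2 were left out. With them, or with any other single culture left out, the gene did not pass the test. In cytoplasmic RNA it was listed at 0 in control replicate 2, the culture left out, and in TPR A replicate 1, and in total RNA it was at 7.51 to 11.2 FPKM in the 3 controls and listed at 0 in the 3 TPR D libraries, so that the size of the difference depends on the constant added to the FPKM.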

How the results depend on the processing

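No gene named here that passed the test in any of these fits against control changed sign in another. Small changes that did not pass it could turn, as for GAPDH (-0.43 to 0.33), and so could list medians near 0, among them those of glycolysis, DNA replication, and actin and tubulin, and, without TPR D replicate 1, of both ribosomal lists (0.04 and 0.02). The share of higher calls turned as well, from 5 of 7 genes to 31 of 84 with 27 libraries. TPR D minus control, 7 genes by limma, gave 14 with quantile normalization, 0 with a pseudocount of 1, 1 with a minimum of 5 FPKM, 84 with all 27 libraries, 155 with 25, 0 with replicates 2 and 3 only, and 0 to 8 with single libraries left out. With the replicate block it gave 24 genes, and 1861 in place of 1208 at an unadjusted p under 0.05. TPR stayed at -2.60 with an adjusted p past the threshold. Control and TPR D numbers were not taken to pair in the main model, and whether they do is not settled by their correlations. The TPR mRNA in the 6 cytoplasmic libraries also passed it with quantile normalization (-2.73), with 27 (-2.61) and with 25 libraries (-2.61), and ranged from -2.80 to -2.23 with single libraries left out.

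TPR D minus TPR A, 1 gene, gave 6 with quantile normalization, 2 with a pseudocount of 1, 12 without a minimum, 4 with a minimum of 5 FPKM, 93 with 27 and 142 with 25 libraries, 7 with the replicate block, 0 with replicates 2 and 3 only, and 0 to 4 with single libraries left out. The difference between cytoplasmic and total change, 0 genes by limma (177 at an unadjusted p under 0.05), gave 0 with the culture as a block, 1 with a pseudocount of 1, 1 without a trend, and 0 to 3 with single cultures left out. The cause of these differences was not tested. A log2 change on this scale understates that of low genes.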
